A study of Mus musculus with 11 samples.

Results

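The genes Nphp4, Invs, Nek8, Anks6, Iqcb1 and Ahi1 were followed in testes of mice with and without a functional Rfx2 gene. They encode nephronophthisis proteins and proteins of the inversin compartment of the cilium. The 6 genes were taken by GENCODE symbol from the 23074 genes of the RNA-Seq count table, in which each of the 6 symbols matched 1 gene. All 6 genes passed the filter on low counts that kept 15745 genes for testing. RNA came from decapsulated testes at postnatal day 21 (P21), from 5 wild type mice (mice 1 to 5) and 6 Rfx2-/- mice (mice 6 to 11). The paper describes a line of mixed background, made from C57BL/6, 129/Sv and FVB/N mice, and another line backcrossed onto C57BL/6. It does not state which line gave this RNA. In the Rfx2-/- mice exon 7 of Rfx2, which codes for most of the DNA binding domain, had been removed through loxP sites by a Cre that is active in all tissues, so the change was present in somatic and germ cells alike. The RNA of a whole testis was measured, and in such bulk samples fewer cells of a type cannot be told apart from less RNA per cell.

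Nephronophthisis is an inherited cystic kidney disease caused by mutations in genes for proteins of the primary cilium. Some of these proteins, such as NPHP4, act at the transition zone, the gate at the ciliary base, while inversin, NEK8 and ANKS6 gather in the inversin compartment, a stretch of the shaft just beyond it. RFX factors bind a motif called the X-box in promoters of ciliary genes, and in the testis round spermatids build the sperm flagellum from a centriole.

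Promoters of 5 of the 6 genes were found in RefSeq sequence of GRCm38.p6, each reaching from 250 bases before to 50 bases after a transcription start, and Anks6 had no entry. These 5 genes had 8 promoters in all, 3 of Nphp4, 2 of Ahi1 and 1 each of Invs, Nek8 and Iqcb1. Both strands were searched for an X-box arm, GTTGCC or GTTACC (on the other strand GGCAAC or GGTAAC), and for a full form, GTNNCC followed by 0 to 3 bases and GGNNAC. An arm occurred in 18.6% and a full form in 3.86% of all 32851 promoters, and a pair of arms facing each other within a full form in 0.408%. The 3 promoters below belong to the genes whose balance differed most between the genotypes. The first is one Ahi1 promoter (chr10:20952297-20952596, plus strand), the second the Nphp4 promoter that lies furthest downstream (chr4:152477892-152478191, plus strand), and the third the Nek8 promoter (chr11:78176617-78176916, minus strand). Capitals mark the matches to the full form or to an arm.
Ahi1: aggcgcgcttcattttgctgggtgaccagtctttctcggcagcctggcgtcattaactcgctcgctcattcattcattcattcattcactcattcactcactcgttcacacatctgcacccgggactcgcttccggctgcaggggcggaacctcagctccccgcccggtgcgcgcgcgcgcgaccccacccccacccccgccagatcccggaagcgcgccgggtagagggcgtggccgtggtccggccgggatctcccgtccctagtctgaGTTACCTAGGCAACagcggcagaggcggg
Nphp4: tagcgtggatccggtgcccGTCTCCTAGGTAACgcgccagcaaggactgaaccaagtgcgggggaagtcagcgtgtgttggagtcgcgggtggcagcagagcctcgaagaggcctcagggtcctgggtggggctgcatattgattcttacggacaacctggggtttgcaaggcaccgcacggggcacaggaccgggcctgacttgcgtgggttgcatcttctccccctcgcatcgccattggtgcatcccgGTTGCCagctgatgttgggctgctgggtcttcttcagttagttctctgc
Nek8: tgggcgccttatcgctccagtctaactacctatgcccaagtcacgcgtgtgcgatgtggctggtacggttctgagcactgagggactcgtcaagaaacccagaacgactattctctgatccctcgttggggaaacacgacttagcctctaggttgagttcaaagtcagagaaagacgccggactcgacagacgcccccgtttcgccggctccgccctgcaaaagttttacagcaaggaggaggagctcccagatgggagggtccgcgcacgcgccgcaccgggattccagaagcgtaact

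In this Ahi1 promoter the full form GTTACCTAGGCAAC lay 22 to 35 bases into the transcript and held a pair of facing arms. The other Ahi1 promoter (chr10:21040570-21040869) held 1 arm. The Nphp4 promoter held the full form GTCTCCTAGGTAAC from position -231 to position -218 relative to the start, of which GGTAAC is an arm, and the arm GTTGCC from base 2 to base 7 of the transcript. The other Nphp4 promoters and those of Invs, Nek8 and Iqcb1 held neither form. These matches describe letters only, and gene counts do not show which of several starts was used.

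Total counts lay between 26925157 and 29769483 in wild type and between 22232097 and 27116903 in Rfx2-/- testes. Rfx2 itself was at 472, 380.2, 218, 368 and 191 CPM, counts scaled to the size of each library, in wild type mice 1 to 5, and between 282 and 324 CPM in the Rfx2-/- mice (log2 fold change -0.10, adjusted p = 0.714), and a whole-gene count does not show the loss of exon 7. Markers of pachytene spermatocytes, the large germ cells of mid meiosis, summed to 3787 to 8774 CPM in wild type and 7559 to 9741 CPM in Rfx2-/- mice. Wild type mice 3 and 5 stood apart, at 3936 and 3787 CPM, below every other mouse. Round spermatid markers were low and uneven, from 5.85 to 391.6 CPM in wild type and from 33.3 to 661 CPM in Rfx2-/- testes, and none of the 7 pachytene or 10 round spermatid markers passed the test. The 8 Sertoli cell markers summed to 867 to 1208 CPM in wild type and 806 to 908 CPM in Rfx2-/- testes. None of these 8 passed either, but all had negative log2 fold changes. At an unadjusted p under 0.05 there were 7 of these 8, against 41.8% of all tested genes in either direction. Of 6 Leydig cell markers 1 was called, Hsd3b1, an enzyme of steroid synthesis, against 1.94% of all tested genes called lower. Hsd3b1 fell from a mean of 91.2 to 50.2 CPM (log2 fold change -0.86, adjusted p = 0.00126 by edgeR's quasi-likelihood test). The median log2 fold change was -0.54 for the Leydig cell markers, -0.46 for 5 macrophage, -0.43 for 4 endothelial, -0.38 for 8 spermatogonial, -0.35 for the Sertoli cell, -0.18 for 8 elongating spermatid, -0.10 for 4 peritubular myoid and 0.12 for 8 early meiotic markers, and 0.49 and 1.04 for the pachytene and round spermatid markers. The macrophage and endothelial medians were about as large as the log2 fold change of Nphp4 (-0.43). The Leydig cell median lay between those of Nphp4 and Nek8 (-0.59), while single Leydig cell markers ranged from -1.12 to 0.09. The part of the mix of cells in the levels of the 6 genes was not tested.

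At P21, Nek8 had the lowest adjusted p of the 6 genes, with a mean in Rfx2-/- testes 1.502-fold below wild type. Nphp4 was also lower on average and Ahi1 1.51-fold higher, while Invs and Iqcb1 had nearly equal means in both genotypes. None of the 6 genes passed the test used for calls, edgeR's quasi-likelihood test at a p of at most 0.01 after Benjamini-Hochberg adjustment over all tested genes. In the same test 2.67% of all tested genes were called, 1.94% lower and 0.730% higher in Rfx2-/- testes. At an unadjusted p under 0.05 there were 3 of the 6, Nphp4, Nek8 and Ahi1, against 41.8% of all tested genes. At an adjusted p of at most 0.05 only Nek8 of the 6 was lower (8.78% of tested genes were lower and 6.15% higher at this limit). At an adjusted p of at most 0.01 DESeq2 called Nek8 lower (5.79% of genes lower), as did edgeR with total counts as library sizes (2.76% of genes lower), and limma voom with sample quality weights called Nphp4 and Nek8 lower (4.33% of genes lower).

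**Figure D1:**
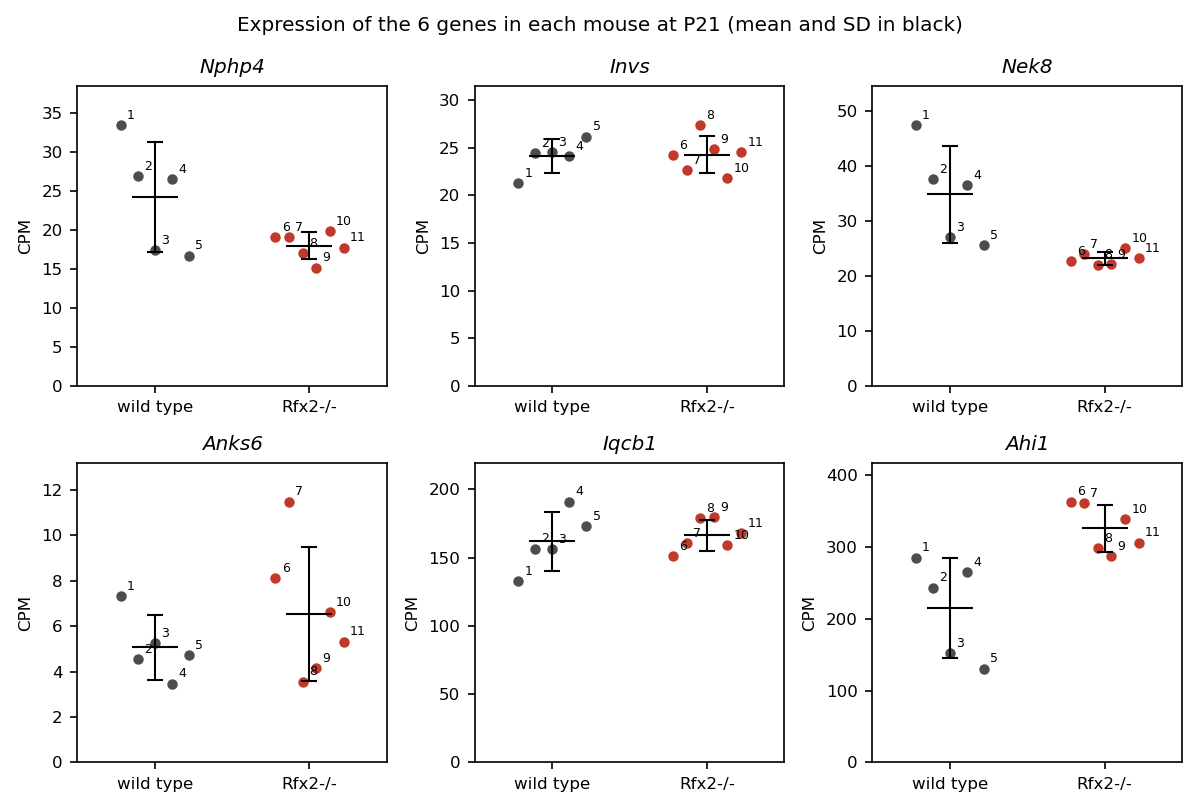
Expression of the 6 genes in each mouse, in CPM on a linear axis from 0, with wild type mice 1 to 5 in grey and Rfx2-/- mice 6 to 11 in red. Black bars are the mean and SD, and only Nek8 and Ahi1 had genotypes that did not overlap.

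Inversin, encoded by Invs (ENSMUSG00000028344, chromosome 4 from 48279760 to 48431954 of GRCm38, plus strand), anchors the compartment named after it. Its level was 21.3, 24.4, 24.5, 24.1 and 26.2 CPM in wild type mice 1 to 5 and 24.3, 22.7, 27.4, 24.9, 21.8 and 24.6 CPM in Rfx2-/- mice 6 to 11. The genotypes overlapped throughout, and the coefficient of variation was 7.26% in wild type and 8.01% in Rfx2-/- mice. The means were 24.1 ± 1.75 CPM (SD, n = 5) and 24.2 ± 1.94 CPM (SD, n = 6), a log2 fold change of 0.01 with a standard error of 0.08 (edgeR's quasi-likelihood test, adjusted p = 0.944). The interval of 2 standard errors on either side ran from -0.15 to 0.16, and the sign of this small difference turned with the scaling.

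NEK8 is a protein kinase of the inversin compartment. Its gene (ENSMUSG00000017405, chromosome 11 from 78166106 to 78176675, minus strand) was at 47.5, 37.7, 27.1, 36.5 and 25.7 CPM in wild type mice 1 to 5. In Rfx2-/- mice 6 to 11 it was at 22.7, 24.0, 22.1, 22.2, 25.1 and 23.2 CPM. Every Rfx2-/- mouse was below every wild type mouse, with wild type mice 3 and 5 closest to them, and 5.20% of all tested genes separated the genotypes in this direction. The Rfx2-/- mice lay close together, with a coefficient of variation of 4.98% against 25.4% in wild type. The means of 34.9 ± 8.88 CPM (SD, n = 5) and 23.2 ± 1.16 CPM (SD, n = 6) gave a log2 fold change of -0.59 with a standard error of 0.14 (edgeR's quasi-likelihood test, adjusted p = 0.0275). This adjusted p ranged from 0.0145 without wild type mouse 5 to 0.0637 without Rfx2-/- mouse 6 when single mice were left out.

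ANKS6 is an ankyrin repeat protein that binds and activates NEK8. Its gene (ENSMUSG00000066191, chromosome 4 from 47015669 to 47057427, minus strand) was the least expressed of the 6, with 77 to 278 counts per mouse. It was at 7.33, 4.54, 5.25, 3.47 and 4.72 CPM in wild type mice 1 to 5 and at 8.10, 11.5, 3.56, 4.13, 6.61 and 5.31 CPM in Rfx2-/- mice 6 to 11. The genotypes overlapped, and the highest mice were Rfx2-/- mouse 7, Rfx2-/- mouse 6, wild type mouse 1 and Rfx2-/- mouse 10. The same 4 mice were also the highest in the summed round spermatid markers and in the summed pachytene markers, and the part of these cells in the level of Anks6 was not tested. The means were 5.06 ± 1.42 CPM (SD, n = 5) and 6.53 ± 2.93 CPM (SD, n = 6), a log2 fold change of 0.37 with a standard error of 0.30 (edgeR's quasi-likelihood test, adjusted p = 0.361). The interval from -0.24 to 0.98 was wide, and the fold change was 0.13 without Rfx2-/- mouse 7.

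NPHP4 is a scaffold protein of the transition zone. Its gene (ENSMUSG00000039577, chromosome 4 from 152476706 to 152563183, plus strand) was at 33.5, 26.9, 17.5, 26.5 and 16.8 CPM in wild type mice 1 to 5. In Rfx2-/- mice 6 to 11 it was at 19.2, 19.1, 17.1, 15.2, 19.9 and 17.8 CPM. Wild type mice 1, 2 and 4 were above every Rfx2-/- mouse, while wild type mice 3 and 5 lay among them. The means were 24.2 ± 7.07 CPM (SD, n = 5) and 18.03 ± 1.71 CPM (SD, n = 6), a log2 fold change of -0.43 with a standard error of 0.17 (edgeR's quasi-likelihood test, adjusted p = 0.0924). Without wild type mouse 1 the fold change was -0.28 on the log2 scale.

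AHI1, also called jouberin, is a WD40 repeat protein of the ciliary base that is mutated in Joubert syndrome. Its gene (ENSMUSG00000019986, chromosome 10 from 20952547 to 21080429, plus strand) was at 285, 244, 152, 265 and 130.5 CPM in wild type mice 1 to 5. In Rfx2-/- mice 6 to 11 it was at 363, 361, 298, 288, 339 and 306 CPM. Every Rfx2-/- mouse was above every wild type mouse, though Rfx2-/- mouse 9 and wild type mouse 1 nearly met, and 6.50% of all tested genes separated the genotypes in this direction. Wild type mice 3 and 5 were the lowest, as they were for the pachytene markers. The means of 215 ± 69.6 CPM (SD, n = 5) and 326 ± 33.0 CPM (SD, n = 6) gave a log2 fold change of 0.60 with a standard error of 0.20 (edgeR's quasi-likelihood test, adjusted p = 0.0577).

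IQCB1 binds calmodulin and CEP290 and acts at the ciliary base, and its loss causes nephronophthisis with retinal disease. Its gene (ENSMUSG00000022837, chromosome 16 from 36828385 to 36872721, plus strand) was at 133, 157, 156, 191 and 173 CPM in wild type mice 1 to 5 and at 151, 161, 179, 179.8, 159 and 168 CPM in Rfx2-/- mice 6 to 11. The range of the Rfx2-/- mice fell within that of wild type, whose lowest mouse was mouse 1, not mouse 3 or 5. The means were 162 ± 21.7 CPM (SD, n = 5) and 166 ± 11.5 CPM (SD, n = 6), a log2 fold change of 0.04 with a standard error of 0.09 (edgeR's quasi-likelihood test, adjusted p = 0.750). The interval ran from -0.14 to 0.22, and the sign of this difference also turned with the scaling. Iqcb1, Invs and Nphp4 overlap Eaf2, Tex10 and Kcnab2 on the opposite strand, and whether reads were counted by strand was not given in the sources used here.

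Levels of different genes were compared per length, as CPM per kb of the merged exons of coding transcripts. In wild type testes the order was Iqcb1 (56.8 ± 7.63 CPM per kb, SD, n = 5), Ahi1 (42.2 ± 13.7), Nek8 (12.4 ± 3.16), Nphp4 (4.82 ± 1.41), Invs (4.28 ± 0.311) and Anks6 (1.31 ± 0.367). The ranges of Iqcb1 and Ahi1 overlapped, Iqcb1 being higher in 4 of 5 mice, and so did those of Nphp4 and Invs, while the other neighbours were apart. In Rfx2-/- testes the order of the means within both overlapping pairs was the reverse on this length, with Ahi1 at 64.0 ± 6.48 CPM per kb (SD, n = 6) ahead of Iqcb1 at 58.3 ± 4.04 and Invs at 4.30 ± 0.345 ahead of Nphp4 at 3.59 ± 0.341. Their ranges overlapped again, with Ahi1 the higher of its pair in 4 of 6 mice and Invs in 5 of 6. With the exons of all transcripts in place of coding ones neither pair changed places. Ahi1 was then ahead of Iqcb1 in both genotypes, at 30.6 and 30.0 CPM per kb in wild type and 46.3 and 30.8 in Rfx2-/- testes. Nphp4 was ahead of Invs in both, at 4.01 and 2.11 CPM per kb in wild type and 2.98 and 2.12 in Rfx2-/- testes. The choice of length also moved Nek8, from 12.4 to 6.68 CPM per kb in wild type, so the order within the overlapping pairs rests on it.

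The ratio of 2 genes within a mouse does not depend on the scaling of libraries beyond a small prior count, and the question here was whether the balance between members of the group differed between genotypes. The balance of Nek8 and of Nphp4 to Ahi1 separated the genotypes without overlap. For Nek8 to Ahi1 this followed from the single genes. Every Rfx2-/- mouse was below every wild type mouse in Nek8 and above every one in Ahi1. The p of this pair was therefore fixed in advance and adds no evidence to that of the 2 genes. How many pairs over all tested genes separate the genotypes was not counted. The log2 ratio of Nek8 to Ahi1 was -2.58, -2.69, -2.48, -2.86 and -2.34 in wild type mice 1 to 5 and -4.00, -3.91, -3.75, -3.69, -3.75 and -3.71 in Rfx2-/- mice 6 to 11. The groups were far apart, and wild type mice 3 and 5 lay with the other wild type mice. The mean difference was -1.21, from -2.59 ± 0.196 (SD, n = 5) to -3.80 ± 0.122 (SD, n = 6), with p = 0.00216 in a two-sided exact permutation test and 0.0162 after Benjamini-Hochberg adjustment over 15 pairs of genes.

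For Nphp4 to Ahi1 the log2 ratio was -3.09, -3.17, -3.11, -3.32 and -2.96 in wild type mice 1 to 5 and between -4.24 and -4.09 in the Rfx2-/- mice. These groups did not overlap either, and the difference of -1.04 from -3.13 ± 0.132 (SD, n = 5) to -4.17 ± 0.0742 (SD, n = 6) had the same exact permutation p and adjusted p. With 5 against 6 mice, 0.00216 is the smallest p this test can give. Nek8 to Iqcb1 was the third pair with an adjusted p of at most 0.05. Its difference was -0.60 (adjusted p = 0.0433, exact permutation test), and here the genotypes overlapped. Leaving out wild type mouse 1, 2, 3 or 4 or any 1 of the Rfx2-/- mice raised its adjusted p above 0.05. It then lay between 0.0571 and 0.119, and the pair no longer passed. Leaving out 1 Rfx2-/- mouse leaves 5 against 5, where the smallest p is 0.00794. With only both Ahi1 pairs at it, the adjusted p is then 0.0595, which cannot pass 0.05. Without Rfx2-/- mouse 9, Nphp4 to Nek8 was at this p too. The adjusted p of Nphp4 to Nek8 and of both Ahi1 pairs was then 0.0397, so all 3 passed.

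Among the other 12 pairs none passed. The log2 ratio of Nphp4 to Nek8 differed by 0.17 (adjusted p = 0.0519, exact permutation test), from -0.54 ± 0.0777 in wild type (SD, n = 5) to -0.37 ± 0.0998 in Rfx2-/- testes (SD, n = 6). The ratio of Invs to Iqcb1 was -2.74 ± 0.140 in wild type (SD, n = 5) and -2.77 ± 0.0902 in Rfx2-/- testes (SD, n = 6), a difference of -0.04 (adjusted p = 0.591, exact permutation test). It was -0.100 without wild type mouse 4 (adjusted p = 0.135, exact permutation test) and -0.0132 without wild type mouse 1.

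**Figure D2:**
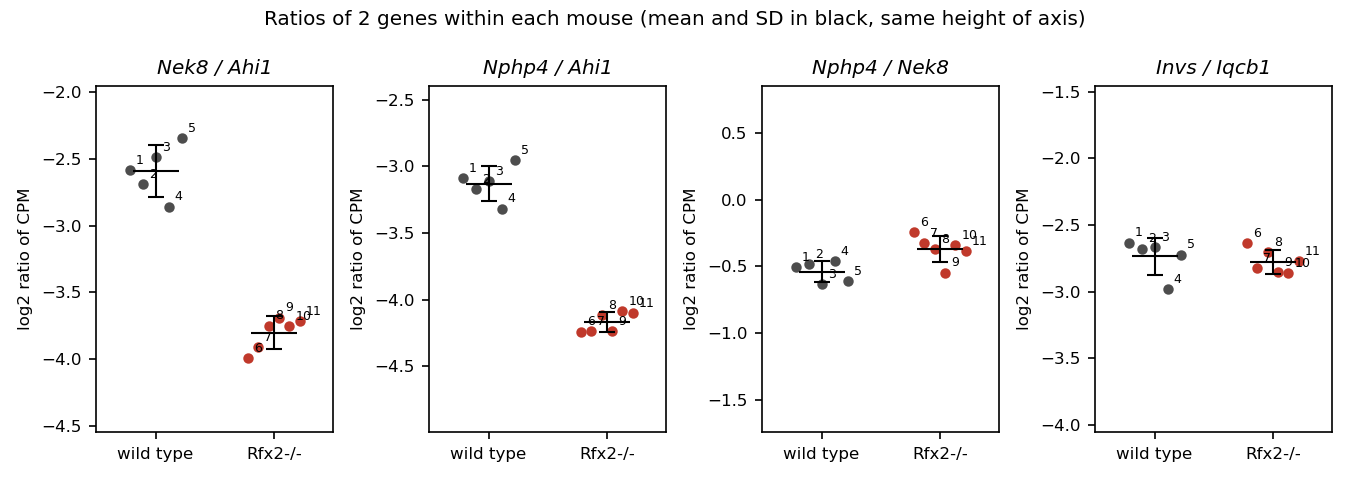
Log2 ratios of CPM of 4 pairs of genes within each mouse, on axes of the same height, for wild type mice 1 to 5 in grey and Rfx2-/- mice 6 to 11 in red, with mean and SD in black. The genotypes are apart for Nek8 to Ahi1 and Nphp4 to Ahi1, and overlap for Nphp4 to Nek8 and Invs to Iqcb1.

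Within wild type, Nphp4, Nek8 and Ahi1 were all lowest in mice 3 and 5, the mice with the lowest pachytene markers, whereas Invs and Iqcb1 were lowest in mouse 1. Wild type mice 2 and 4 and Rfx2-/- mouse 9 had like sums of these markers. Wild type mice 2 and 4, at 7558 and 7548 CPM of pachytene markers, had 26.9 and 26.5 CPM of Nphp4 and 37.7 and 36.5 CPM of Nek8. Rfx2-/- mouse 9, at 7559 CPM of these markers, had 15.2 and 22.2 CPM. For Ahi1 the same 3 mice were closer, at 244 and 265 CPM in wild type and 288 CPM in the Rfx2-/- mouse. This sets a single Rfx2-/- mouse beside wild type mice 2 and 4. The 3 mice also differed in other markers, with Leydig cell sums of 319 and 131 CPM in wild type and 99.9 CPM in Rfx2-/-. The part of the mix of cells in these differences was not tested.

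**Figure D3:**
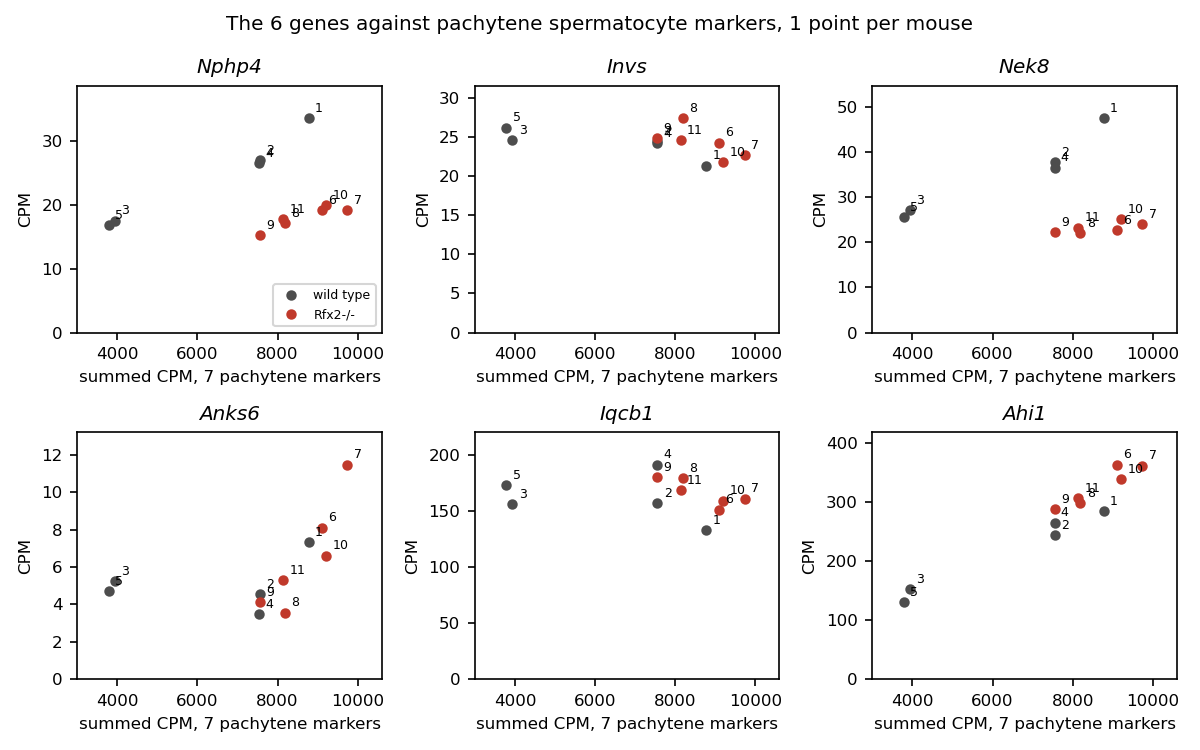
CPM of each of the 6 genes (vertical axes) against the summed CPM of 7 pachytene spermatocyte markers (horizontal axes), 1 point per mouse, wild type in grey and Rfx2-/- in red. Wild type mice 3 and 5 lie far to the left. Among the other mice the Rfx2-/- points of Nphp4 and Nek8 lie below wild type.

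With the mean level of the pachytene markers as a covariate, a fit added after seeing the data, Nphp4 and Nek8 passed the test. The log2 fold change was -0.81 for Nphp4 (adjusted p = 1.98e-05) and -0.90 for Nek8 (adjusted p = 7.00e-06, both from edgeR's quasi-likelihood test), and 4.60% of all tested genes were called lower in this fit. For Ahi1 the difference shrank to 0.15 (adjusted p = 0.0637), and for Anks6, Iqcb1 and Invs it was 0.14, 0.11 and 0.10. With round spermatid markers as the covariate the log2 fold changes were -0.62 for Nphp4 (adjusted p = 0.00331), -0.73 for Nek8 (adjusted p = 0.000445) and 0.40 for Ahi1 (adjusted p = 0.0712), with 4.08% of genes called lower. Without wild type mice 3 and 5, also added after seeing the data, they were -0.68 for Nphp4 (adjusted p = 0.00407), -0.80 for Nek8 (adjusted p = 0.000536) and 0.31 for Ahi1 (adjusted p = 0.0591), with 2.72% of genes called lower. Mice 3 and 5 were the lowest wild type mice in Nphp4, Nek8 and Ahi1, so leaving them out raised the wild type means. The direction of these shifts was thus fixed by the choice of mice and adds no evidence. The pachytene markers themselves had a median of 7548 CPM in wild type and 8647 CPM in Rfx2-/- mice, so this covariate is not independent of genotype.

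**Figure D4:**
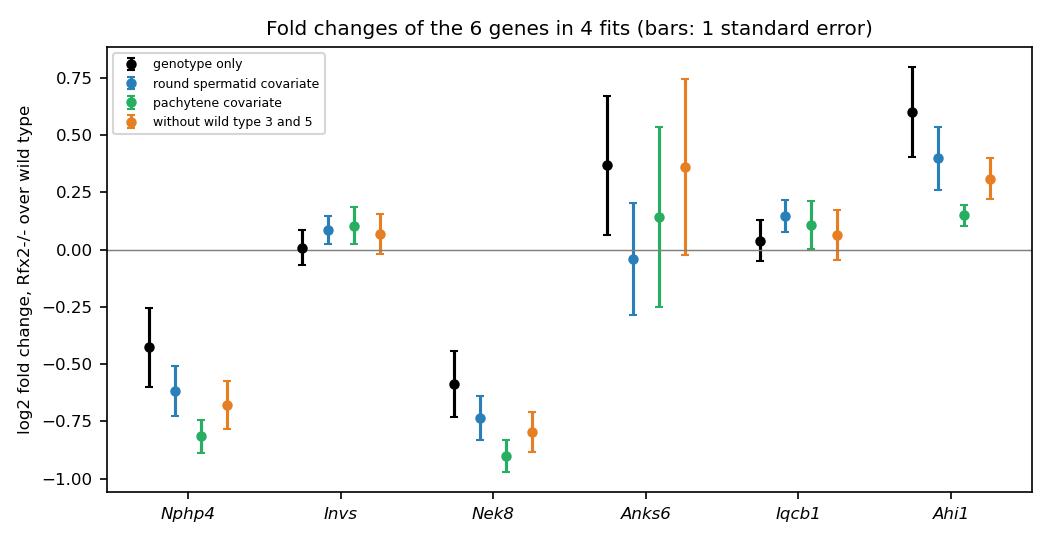
Log2 fold changes of the 6 genes, Rfx2-/- over wild type, in 4 fits, with genotype only, with round spermatid or pachytene markers as a covariate, and without wild type mice 3 and 5. Bars are 1 standard error, and Nphp4 and Nek8 lie below 0 and Ahi1 above 0 in each fit, from -0.43 to -0.81 for Nphp4 and from 0.60 to 0.15 for Ahi1. Wild type mice 3 and 5 were the lowest wild type mice in these genes, so their omission fixed the direction of the shift in the last fit.

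Of 18 other nephronophthisis genes, all of which were tested, 3 fell and 1 rose in Rfx2-/- testes, while 14 did not pass the test. Over all tested genes 1.94% were called lower and 0.730% higher. The median log2 fold change of the 18 was 0.08, against -0.05 over all tested genes. Zfp423, a zinc finger transcription factor, fell most. Its mean was 9.24 ± 3.22 CPM in wild type (SD, n = 5) and 2.33 ± 0.372 CPM in Rfx2-/- testes (SD, n = 6), a log2 fold change of -1.98 (adjusted p = 0.000427). Dcdc2a, which encodes a doublecortin domain protein that binds microtubules, fell from 27.6 ± 8.22 CPM to 9.19 ± 1.13 CPM (-1.58, adjusted p = 0.000536). Mapkbp1, a WD40 repeat protein that binds kinases of the JNK pathway, fell from 334 ± 55.4 CPM to 181 ± 10.7 CPM (-0.88, adjusted p = 0.000492). Rpgrip1l, a transition zone scaffold and partner of NPHP4, rose from 52.9 ± 3.50 CPM to 83.8 ± 5.401 CPM (0.66, adjusted p = 0.000143, all from edgeR's quasi-likelihood test). For these 4 genes the genotypes did not overlap, and each was called under every alternative fit. Among all 18 the genotypes did not overlap for 4 genes on the lower and 2 on the higher side. Over all tested genes these shares were 5.20% and 6.50%.

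**Figure D5:**
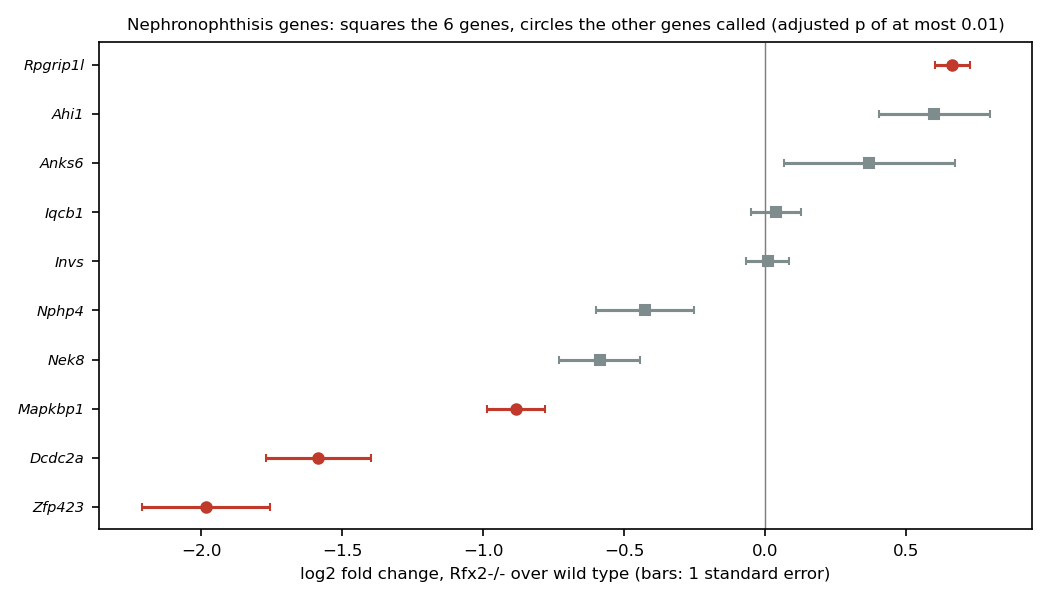
Log2 fold changes (horizontal axis, Rfx2-/- over wild type) of the 6 genes, as grey squares, and of the 4 other nephronophthisis genes that were called, as red circles, with bars of 1 standard error. Rpgrip1l lies at 0.66 on the higher side, and Mapkbp1, Dcdc2a and Zfp423 lie at -0.88, -1.58 and -1.98, below all 6 genes.

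Of 10 further genes whose products bind members of the group, such as Anks3, Bicc1 and Rpgr, none was called by edgeR's quasi-likelihood test, with a median log2 fold change of 0.02. At an unadjusted p under 0.05 there were 4 of the 10, against 41.8% of all tested genes. DESeq2 called 1 of them lower and 1 higher (5.79% and 7.28% of all tested genes), and limma voom with sample quality weights 1 lower (4.33%). These 10 genes ranged from -0.43 for Bicc1, an RNA binding protein linked to ANKS6 through ANKS3, to 0.38 for Arl3, a small GTPase that releases lipidated cargo in cilia.

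Genes most like each member over the 11 mice were ranked by Pearson correlation of log2 CPM. The mice share their libraries, their depth and their mix of cells across all genes, and the 3 closest genes of each member were picked as the highest of all tested genes, so these values are a description. Nek8 was most like Ino80b (r = 0.991, rho = 0.982), Fbxw9 (r = 0.987) and Rsph14 (r = 0.984). Nphp4 was most like Lpcat4 (r = 0.986, rho = 0.945), Rasal3 (r = 0.984) and Meaf6 (r = 0.984). Ahi1 had the closest neighbours, Slc9b1, Ppp2r5c and Supt20, each with r = 0.998 and with rho of 0.945, 0.982 and 0.991. Anks6 was most like Ell2 (r = 0.992, rho = 0.973), Tns1 (r = 0.986) and Cemip (r = 0.984). For Iqcb1 the closest were Gzmm (r = 0.976, rho = 0.918), Ppp1cb (r = 0.975) and Cbfa2t2 (r = 0.963). For Invs, whose level varied least, they were Sec22b (r = 0.939, rho = 0.900), Armc1 (r = 0.935) and Tsn (r = 0.923). None of the 6 genes was among the 3 closest of another.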

How the data were processed

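The authors isolated RNA from decapsulated testes, made TruSeq libraries, aligned single reads to GRCm38 from Ensembl, dropped those that matched in several places, and counted reads on merged exons of the coding isoforms of each gene, leaving out reads on exons of different genes. The submitters' processing notes name CASAVA 1.8.2, STAR 2.4 and featureCounts 1.4.6, while the study's supplementary methods give differing aligners and read lengths. The deposited table holds raw counts per gene and mouse, without normalization, and 0 sample columns were left unused.

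The count models were fitted with edgeR 4.0.16 under R 4.3.3, using filterByExpr with genotype as the group, TMM scaling, glmQLFit and glmQLFTest without covariates, with Benjamini-Hochberg adjustment over 15745 genes and calls at an adjusted p of at most 0.01. The limit of 0.01 is the study's, which does not say whether its p was adjusted. CPM are TMM-scaled, without a prior count, while the log2 CPM behind correlations and ratios had a prior count of 2. A count of 3, a library's floor, was 0.0852 to 0.139 CPM and covers counting error only. Mice are separate animals. Ratios of 2 genes were compared by two-sided exact permutation tests. Gene positions came from GENCODE M21 and promoters from RefSeq. The genes and lists were chosen with earlier results of these data known. Named were the 6 genes, called genes of the lists (Hsd3b1 among the markers), Rfx2, and the 3 tested genes most like each of the 6; Anks3, Bicc1, Rpgr and Arl3 were named besides, after their values were seen. Alternatives were DESeq2's size factors, total counts, DESeq2 1.42.0 (Wald test), voom with sample quality weights from limma 3.58.1, a robust prior, no filter, a mean count of at least 50, other p limits, a round spermatid covariate a prior count of 0.5 for ratios, exons of all transcripts as the length, and each mouse left out; the pachytene covariate and the omission of wild type mice 3 and 5 were chosen after seeing the data. Scripts were tested on simulated counts. Other listed genes were counted and not named. Mice at P30, ChIP-Seq reads and single exons were not analysed here.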

Additional observations from a re-analysis of the deposited data

How the results depend on the processing

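No paired analysis was run because the sample labels used here name no litters or pairs. The paper states that littermates of the same age were taken where possible, and a part of litter in these values was not tested. Of 517 values under alternatives, 426 kept their direction, their side of the threshold or, for counts, stayed within 1.5 times. Ahi1 kept its direction and stayed above an adjusted p of 0.01 in all 23 alternatives (0.0123 to 0.120). The causes of the changes below were not tested.

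With total counts as library sizes the median of all tested genes moved from -0.05 to -0.22 (log2), Invs and Iqcb1 turned to -0.16 and -0.13, both above that median, and Nek8 passed at -0.73 (1 of the 6 called lower). With DESeq2 Nek8 passed at -0.56 (1 of the 6), 911 genes were lower and 1146 higher, and 1 binding partner each was lower and higher. With voom and quality weights Nphp4 (-0.52) and Nek8 (-0.66) passed (2 of the 6), Invs turned to -0.00995, 682 genes were lower and 367 higher, and 1 partner was lower. At an adjusted p of at most 0.05, 1382 genes were lower and 968 higher, with 3 partners lower, 1 higher, and Nek8 (-0.59) as 1 of the 6. At an unadjusted p of at most 0.01 it was 1604 and 1180 of the 15745 tested genes, 3 and 1 partners, and again Nek8 (-0.59). Of the 18 other nephronophthisis genes 5 were lower at this limit.

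With the round spermatid covariate Nphp4 (-0.62) and Nek8 (-0.73) passed (2 of the 6), Anks6 turned to -0.0395, with 642 genes lower, 200 higher and 1 partner lower. With the pachytene covariate Nphp4 (-0.81) and Nek8 (-0.90) passed. In this fit 724 genes (4.60% of all tested genes) were lower and 177 higher, and 7 of the 18 other nephronophthisis genes were lower. Without wild type mice 3 and 5, Nphp4 (-0.68) and Nek8 (-0.80) passed, and of the log2 ratios Nphp4 to Invs (-0.74), Nphp4 to Iqcb1 (-0.75) and Invs to Nek8 (0.85) passed, while Anks6 to Ahi1 turned to 0.00649. Within wild type, mice 3 and 5 were lowest in Nphp4, Nek8, Nphp4 to Invs and Nphp4 to Iqcb1. They were highest in Invs to Nek8 and Anks6 to Ahi1, so their omission fixed the direction of all these shifts.

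With single mice left out, lower calls ranged from 184 (without Rfx2-/- mouse 10) to 393, higher calls from 45 (the same mouse) to 192 (without wild type mouse 1), lower partners from 0 to 1, Invs from -0.0334 to 0.0525 and Iqcb1 from -0.0253 to 0.105. The ratios ranged from -0.82 to -0.46 (Invs to Ahi1), 0.39 to 0.69 (Invs to Nek8), -0.80 to -0.42 (Iqcb1 to Ahi1), -1.28 to -1.15 (Nek8 to Ahi1), -0.72 to -0.41 (Nek8 to Iqcb1), -1.09 to -0.997 (Nphp4 to Ahi1) and 0.15 to 0.21 (Nphp4 to Nek8). Without wild type mouse 1, Invs to Ahi1 (adjusted p = 0.0357) and Iqcb1 to Ahi1 (adjusted p = 0.0238) passed the exact permutation test. So did Invs to Nek8 without wild type mouse 5 (adjusted p = 0.0357) and Nphp4 to Nek8 without Rfx2-/- mouse 9 (adjusted p = 0.0397). A prior count of 0.5 changed no call of a ratio. Anks6 had the lowest counts of the 6 genes, 77 to 278 per mouse.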
